A study of Mus musculus with 6 samples.

Results

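Erythroid and megakaryocyte effector genes were examined for chromatin accessibility in granulocyte-monocyte progenitors, a myeloid cell type from which neither red cells nor platelets are made. The set held 28 genes, 14 erythroid (Epor to Bcl11a) and 14 megakaryocyte (Pf4 to Gp5). Their peaks were those overlapping the gene body, or lying within 50 kb with the gene as the nearest protein-coding gene, and numbered 290 of the 182166 consensus peaks in the table, 160 erythroid and 130 megakaryocyte. No peak was assigned to Alas2, Car1 or Ppbp, so 25 genes had data. At the 50 kb limit, the farthest peak kept, 48.4 kb from Tfrc, held 6.42, 19.7 and 13.3 normalized reads in GFI1-KD and 12.4, 12.3 and 19.6 in GFI1-KI. The nearest one left out, 53.1 kb from Bcl11a, held 37.4, 19.7 and 23.3 in GFI1-KD and 31.5, 71.9 and 64.2 in GFI1-KI.

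The progenitors were sorted by flow cytometry from bone marrow of untreated C57BL/6 mice, and open DNA was mapped by ATAC-seq, which marks accessible chromatin by the adapters that a transposase leaves there. GFI1 is a repressor that binds DNA through zinc fingers and acts in blood progenitors. In GFI1-KD mice (labelled KD/KD) human GFI1 is expressed at 10-20% in place of mouse Gfi1, and in GFI1-KI mice (labelled KI/KI) human GFI1 replaces the mouse gene, so both genotypes lack mouse Gfi1 and no unmodified mouse was compared. Each genotype had 3 libraries, called KD1 to KD3 and KI1 to KI3, and the labels give neither the age of the mice nor whether libraries came from separate animals, and the p-values below therefore rest on differences among libraries that may be partly technical. Reads in peaks numbered 16022763 to 19857646 in GFI1-KD and 19408373 to 27741446 in GFI1-KI, with KI1 the shallowest of its genotype. On chromosome Y, KD1 held 0 and KI2 held 1 read in peaks, against 499 to 865 in the other 4 libraries, so libraries with and without Y reads occurred in both genotypes.

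Red cell precursors depend on the erythropoietin receptor for survival, take up iron through the transferrin receptor, make haem, and build a membrane in which spectrin, ankyrin and band 3 are joined. Megakaryocytes make platelets and carry the receptors with which platelets adhere and aggregate, chiefly the GPIb-IX-V complex for von Willebrand factor and the integrin αIIbβ3 for fibrinogen, together with granules of chemokines and adhesion proteins. Genes of both lineages are switched on by GATA factors, with KLF factors in the erythroid and ETS factors in the megakaryocyte lineage. Accessibility at such genes in myeloid progenitors measures how open their DNA is, not their expression. In bulk libraries, fewer cells with an open site and less opening per cell cannot be told apart.

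The promoters on which the start-site results below rest are shown first, from 250 bases before to 50 after the annotated start, from RefSeq on GRCm38.p6, which is the build mm10. They belong to 6 genes whose start-site peak was lower in GFI1-KD, and that peak covers between 188 and 300 of the 300 bases. Each is written 5′ to 3′ on the gene's strand, and capitals mark every GATAA or its reverse complement TTATC, the core bound by GATA factors. Epor lies at chr9:21963527-21963826 (minus strand), Hemgn at chr4:46404134-46404433 (minus), Aqp1 at chr6:55336049-55336348 (plus), Itga2b at chr11:102469834-102470133 (minus), Gp1ba at chr11:70638872-70639171 (plus) and Gp5 at chr16:30310732-30311031 (minus).
Epor: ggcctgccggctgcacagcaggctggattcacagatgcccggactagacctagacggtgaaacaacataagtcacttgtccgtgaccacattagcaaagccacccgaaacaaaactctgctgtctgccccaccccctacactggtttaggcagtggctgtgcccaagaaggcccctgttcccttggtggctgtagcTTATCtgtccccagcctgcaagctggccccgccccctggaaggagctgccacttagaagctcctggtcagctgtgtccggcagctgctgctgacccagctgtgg
Hemgn: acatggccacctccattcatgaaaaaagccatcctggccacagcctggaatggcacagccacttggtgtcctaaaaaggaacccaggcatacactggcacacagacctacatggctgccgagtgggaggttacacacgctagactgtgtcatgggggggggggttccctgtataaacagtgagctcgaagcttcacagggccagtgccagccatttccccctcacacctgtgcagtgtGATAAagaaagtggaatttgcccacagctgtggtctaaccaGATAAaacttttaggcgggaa
Aqp1: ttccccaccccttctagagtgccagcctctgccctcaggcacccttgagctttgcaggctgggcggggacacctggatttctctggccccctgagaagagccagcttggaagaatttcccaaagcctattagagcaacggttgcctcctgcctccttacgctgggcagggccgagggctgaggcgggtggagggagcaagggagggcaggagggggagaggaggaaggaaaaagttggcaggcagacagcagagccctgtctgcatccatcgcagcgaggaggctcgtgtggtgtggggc
Itga2b: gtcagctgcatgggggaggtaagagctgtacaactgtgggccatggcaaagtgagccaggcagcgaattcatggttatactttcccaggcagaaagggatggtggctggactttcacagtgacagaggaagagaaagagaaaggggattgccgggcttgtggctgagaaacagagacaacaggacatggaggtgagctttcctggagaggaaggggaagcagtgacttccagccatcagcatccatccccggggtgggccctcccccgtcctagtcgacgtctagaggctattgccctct
Gp1ba: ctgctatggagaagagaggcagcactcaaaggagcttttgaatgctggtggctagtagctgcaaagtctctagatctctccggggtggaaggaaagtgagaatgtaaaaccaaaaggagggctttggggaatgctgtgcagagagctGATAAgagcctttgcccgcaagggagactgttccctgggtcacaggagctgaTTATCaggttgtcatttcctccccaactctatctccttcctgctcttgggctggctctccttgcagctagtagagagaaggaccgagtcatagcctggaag
Gp5: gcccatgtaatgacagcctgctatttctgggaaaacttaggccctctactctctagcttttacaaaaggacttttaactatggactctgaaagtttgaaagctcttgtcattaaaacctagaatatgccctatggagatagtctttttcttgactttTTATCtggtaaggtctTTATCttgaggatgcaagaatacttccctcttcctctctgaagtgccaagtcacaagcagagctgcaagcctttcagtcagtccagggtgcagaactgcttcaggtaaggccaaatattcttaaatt

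Of these 6 promoters, Epor held 1 GATAA match, Hemgn, Gp1ba and Gp5 held 2 each, and Aqp1 and Itga2b held 0. Among the 21 member genes with a promoter sequence, 11 held GATAA on either strand, against 25.4% of 32851 RefSeq promoters of the same length. AATCAC, a core of the GFI1 and GFI1B motif, was found at 1 of the 21 genes (10.4% of all promoters), at Gp1bb. CCGGAA, an ETS core, was found at 1 (14.9%), at Pf4, and CACCC, a KLF core, at 17 (57.5%). Both strands were searched, and the motifs were counted separately. A match is a run of letters and was not tested as a binding site, and the absence of a match says only that these letters are not in this window.

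Summed over all peaks of a gene, accessibility was lower in GFI1-KD at 14 of the 25 genes and higher at 0, where 13.3% of all 17728 tested genes were lower and 3.82% higher (limma adjusted p under 0.05). Among the erythroid genes 6 of 12 were lower: the erythropoietin receptor Epor, the membrane genes Ank1, Rhag and Aqp1, the carbonic anhydrase gene Car2 and Hemgn. Among the megakaryocyte genes 8 of 13 were lower: all 4 genes of the GPIb-IX-V complex (Gp1ba, Gp1bb, Gp9 and Gp5), the integrin subunit Itga2b, the granule receptor Treml1, the platelet tubulin Tubb1 and the secretion GTPase Rab27b. In the 14 genes the GFI1-KD mean was between 61.0% (Aqp1) and 84.0% (Itga2b) of the GFI1-KI mean. The 3 GFI1-KD sums lay below the 3 GFI1-KI sums in 16 of 25 genes, 13 of them called, with 32.1% of all genes as background, and above them in 0. The median log2 fold change of the sums was -0.27 over the erythroid and -0.35 over the megakaryocyte genes, against -0.08 over all tested genes.

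**Figure D1:**
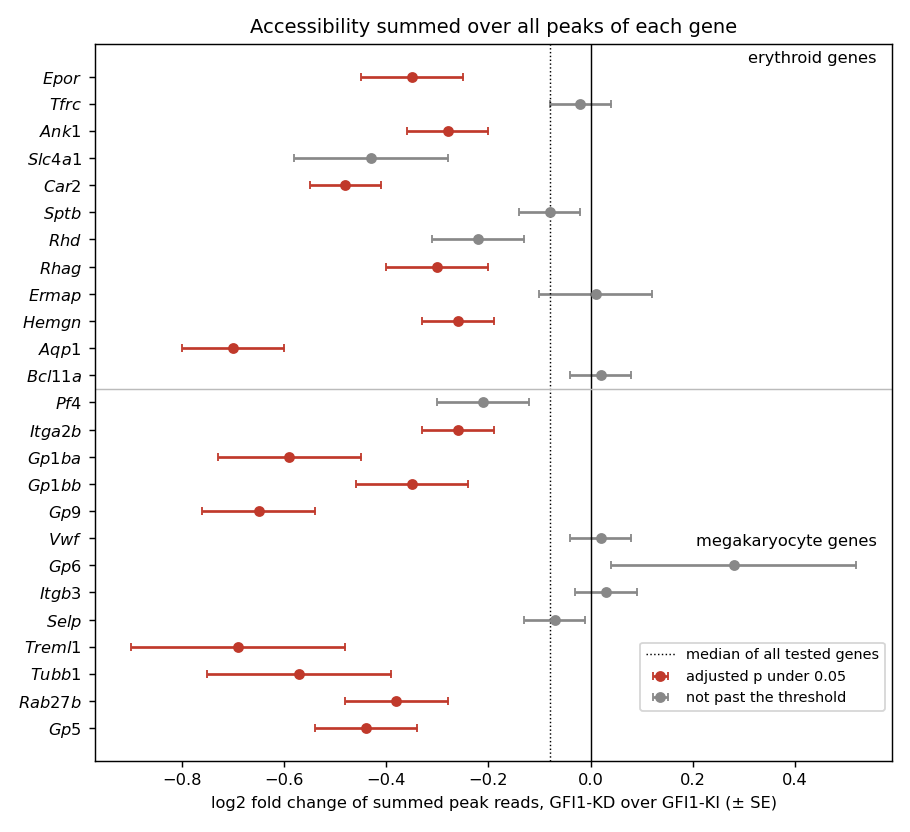
Log2 fold change of GFI1-KD over GFI1-KI (horizontal axis, points with standard errors from limma, 3 libraries per genotype) of normalized reads summed over all peaks of each of the 25 genes; red marks an adjusted p under 0.05 over all genes and the dotted line the median of all tested genes, -0.08. Aqp1 at -0.70, Treml1 at -0.69 and Gp9 at -0.65 lie farthest left, while Tfrc, Ermap, Bcl11a, Vwf and Itgb3 lie between -0.02 and 0.03.

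These gene-level calls depended on single libraries. The number of genes called lower was 5 without KD2 (6.28% of all genes), 7 without KI2 (5.55%), 9 without KI3 (6.86%) and 14 without KI1 (11.8%). Calls at Car2, Aqp1, Gp9 and Gp5 held in each of the 6 fits that left out 1 library. With median-of-ratios scaling or equal totals 12 of the 25 genes were lower and 0 higher (backgrounds of 8.87% and 11.1% lower), and with edgeR on recovered reads 11 were lower and 0 higher (6.74%). DESeq2 called 7 of the 14, losing Epor, Ank1, Rhag, Hemgn, Gp1bb, Treml1 and Tubb1.

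Peak by peak, 19 of 153 tested erythroid peaks were lower in GFI1-KD, 6 were higher and 128 were not called. Of 124 tested megakaryocyte peaks, 16 were lower, 3 were higher and 105 were not called. Over all 170733 tested peaks 10.5% were called, 5.48% lower and 4.99% higher, so the lower calls made up 12.4% of the erythroid and 12.9% of the megakaryocyte peaks, and the higher calls 3.92% and 2.42%. The median log2 fold change was -0.11 for erythroid, -0.15 for megakaryocyte and -0.05 for all tested peaks. In all, 277 of the 290 peaks passed the filter on low values, a mean of at least 10 normalized reads over the 6 libraries. The split between directions moved with the scaling. Median-of-ratios scaling gave 15 lower and 11 higher erythroid and 16 lower and 7 higher megakaryocyte peaks (4.55% lower and 6.84% higher over all peaks). Equal totals gave 17 and 11 erythroid and 15 and 7 megakaryocyte peaks (4.88% and 6.92%), and edgeR gave 21 and 11 and 16 and 7 (5.25% and 7.36%). Without KI2 the called peaks numbered 11 erythroid and 11 megakaryocyte (4.23% over all peaks), without KI3 12 and 11 (4.11%), and without KD2 16 and 13 (7.3%). Of the lower peaks, 4 erythroid and 2 megakaryocyte had a GFI1-KD mean under 10 and passed the filter through GFI1-KI alone. Among peaks averaging at least 10 in each genotype, 15 of 145 erythroid and 14 of 119 megakaryocyte peaks were lower, against 5.11% of all such peaks.

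**Figure D2:**
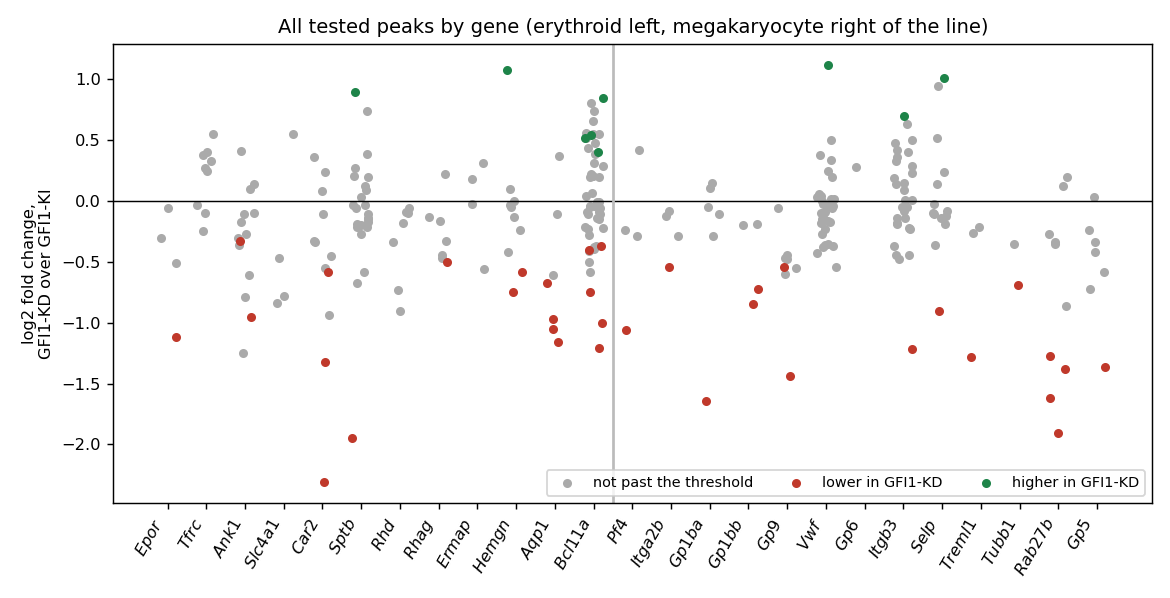
Log2 fold change of GFI1-KD over GFI1-KI (vertical axis) for each of the 277 tested peaks, by gene, with horizontal scatter only to separate points; red peaks were lower and green peaks higher in GFI1-KD at an adjusted p under 0.05. Bcl11a holds both colours, whereas Aqp1 and Rab27b hold 4 red peaks each and no green one. At Rab27b, 2 of these passed the filter on low values through GFI1-KI alone.

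Of the places examined (start sites, gene bodies and outside genes), the start sites gave the highest share of lower calls. Of 25 tested peaks within 1 kb of a member's own start, at 15 genes, 9 were lower and 0 higher, against 7.21% lower and 2.01% higher among the 24786 tested peaks within 1 kb of any annotated start. The 9 peaks belong to 8 genes, namely Epor, Hemgn, Aqp1, Itga2b, Gp1ba, Gp1bb, Treml1 and Gp5. In gene bodies 8 of 99 erythroid peaks were lower and 5 higher, and 6 of 76 megakaryocyte peaks were lower and 2 higher, where 5.23% of all gene-body peaks away from a start were lower and 5.32% higher. Outside genes 8 of 44 erythroid peaks were lower and 1 higher, and 4 of 33 megakaryocyte peaks were lower and 1 higher, where 4.65% of all such peaks within 50 kb of a gene were lower and 5.43% higher. No start was annotated in the sources used here for Ank1, Slc4a1, Car1, Car2, Vwf, Itgb3 or Rab27b, whose peaks count as gene body or outside. Exons and introns were not told apart.

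**Figure D3:**
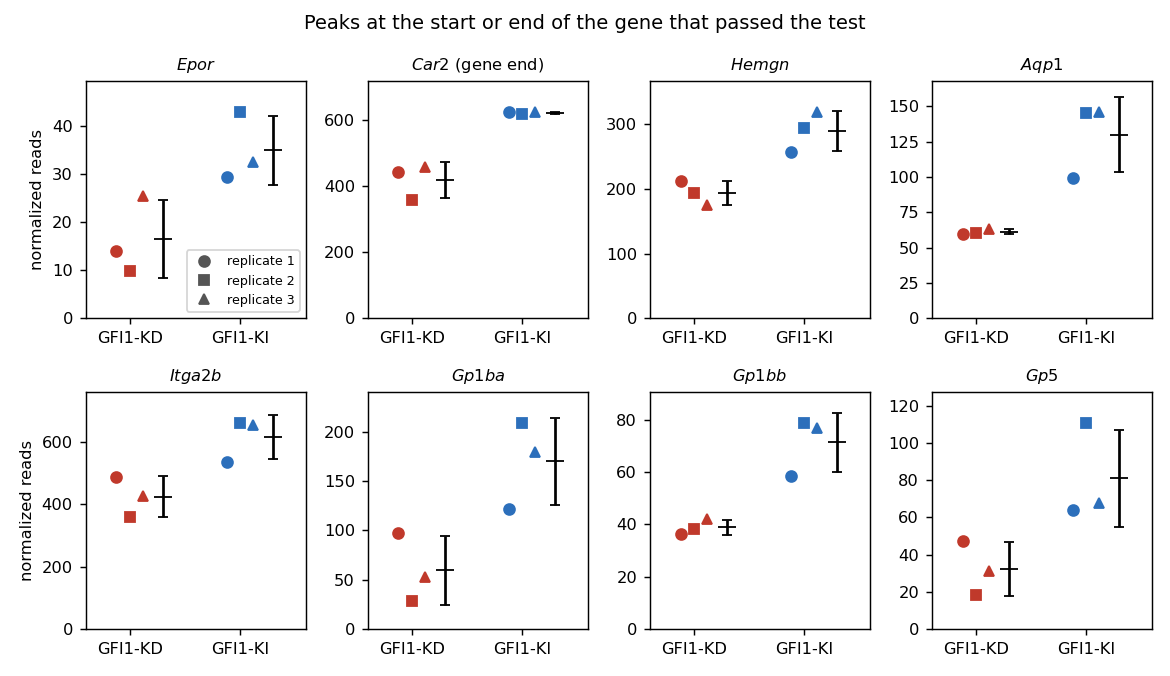
Normalized reads (vertical axes, from 0) of each library at the 8 peaks that passed the test among those chosen for each gene as nearest to its start, or strongest at a gene end where no start was annotated (Car2); GFI1-KD is red and GFI1-KI blue, symbols give the replicate number and black bars the mean ± SD of 3 libraries. In each panel all 3 GFI1-KD values lie below all 3 GFI1-KI values, as at 17.4% of all tested peaks. Peaks chosen by the test would mostly show this. At Gp1ba the GFI1-KD values run from 28.4 to 97.4.

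Among the receptors of the erythroid lineage, Epor and Tfrc differed in outcome. The peak over the Epor start, on chromosome 9 from 21963542 to 21963729, held 13.9, 9.87 and 25.5 normalized reads in KD1, KD2 and KD3, and 29.3, 42.9 and 32.5 in KI1, KI2 and KI3. The genotypes did not overlap, at a low level in both, and the log2 change was -1.12 ± 0.30 (SE, limma adjusted p = 0.0182). That call was lost without KD2 (limma adjusted p = 0.0910), KI2 (0.123) or KI3 (0.0598), and with DESeq2 (0.0814). The strongest Epor peak lay 0.7 kb from the start and averaged 172.1 ± 11.2 in GFI1-KD and 212.1 ± 15.3 in GFI1-KI (SD, n = 3 each). It was not called (-0.30 ± 0.12, limma adjusted p = 0.112). Summed over its 5 peaks, Epor averaged 238.5 ± 15.4 in GFI1-KD and 304.4 ± 18.8 in GFI1-KI (SD, n = 3 each), a call lost without KD2 (0.0747) or KI2 (0.142), and with DESeq2 (0.114). Tfrc, which encodes the transferrin receptor, had 0 of 9 tested peaks called. Its start peak averaged 969 ± 37.7 normalized reads in GFI1-KD and 1040.2 ± 21.8 in GFI1-KI (SD, n = 3 each), and did not pass the test (limma adjusted p = 0.333). The Tfrc sum was 98.4% of the GFI1-KI level, and its fold change, -0.02 ± 0.06, was 0.02 with median-of-ratios scaling or equal totals and 0.06 with edgeR. Alas2, the erythroid gene for the first enzyme of haem synthesis, had no assigned peak.

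In the membrane and cytoskeleton group, the water channel gene Aqp1 was lower at 4 of its 7 tested peaks and higher at 0. Its start peak, on chromosome 6 from 55336155 to 55336601, held 59.9, 60.5 and 63.2 normalized reads in KD1, KD2 and KD3, and 99.1, 145 and 146 in KI1, KI2 and KI3. The GFI1-KD values lay close together while KI1 stood below KI2 and KI3, and the log2 change was -1.05 ± 0.17 (SE, limma adjusted p = 0.000411). The other 3 lay 4.6 and 5.7 kb before the gene and 7.5 kb beyond its other end, with log2 fold changes of -0.67, -0.97 and -1.16. Of these, the peak at 5.7 kb was not called without KI2 (limma adjusted p = 0.0791). Summed over the gene, Aqp1 held 368.1, 380.1 and 395.8 in KD1, KD2 and KD3 and 522.4, 706.5 and 646.4 in KI1, KI2 and KI3, a log2 change of -0.70 ± 0.10 (limma adjusted p = 3.57e-05). Around Aqp1, 10.9% of the other tested peaks within 2.5 Mb were lower, against a range of 2.44% to 13.4% around the 25 genes. That share was 10.7% around Tubb1 and 9.0% around Pf4, with 5.48% over all peaks.

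Ank1, which encodes the ankyrin that ties band 3 to spectrin, was lower at 2 of 14 tested peaks. The stronger change lay 12.4 kb outside the gene, on chromosome 8 from 22962075 to 22962419, with 25.7, 34.6 and 33.3 normalized reads in KD1, KD2 and KD3 and 69.8, 61.4 and 52.1 in KI1, KI2 and KI3. The groups stood apart there, at -0.95 ± 0.20 (limma adjusted p = 0.00448). The second, within the gene, changed by -0.33 ± 0.10 and was called in only 1 of the 6 fits that left out a library, without KI1, with adjusted p between 0.0523 and 0.215 in the others. Some Ank1 peaks that were not called differed widely among the GFI1-KD libraries. That starting at 23024478 held 7.49, 43.2 and 75.4 in KD1, KD2 and KD3, and 73.2, 68.4 and 73.3 in KI1, KI2 and KI3 (limma adjusted p = 0.0763). The Ank1 sum held 1018.6, 1094.7 and 1438.1 in KD1, KD2 and KD3, and 1383.8, 1460.2 and 1425.0 in KI1, KI2 and KI3. KD3 thus lay within the GFI1-KI range, and the gene's call (limma adjusted p = 0.0240) was lost without KD1 (0.0722) or KD2 (0.178), with median-of-ratios scaling (0.0571), with equal totals (0.0683), with robust variance estimation (0.0890), with edgeR (0.134) and with DESeq2 (0.432).

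Slc4a1, which encodes band 3, the anion exchanger, had 0 of 4 peaks called. Its summed reads averaged 117.6 ± 26.6 in GFI1-KD and 155.8 ± 6.2 in GFI1-KI (SD, n = 3 each), just short of the threshold (limma adjusted p = 0.0503), with 0.0175 without KD3. It passed with the replicate number as a block (0.0235), a chromosome Y term (0.0323), robust variance estimation (0.0388), a pseudocount of 5 (0.0491) and a mean of at least 50 (0.0488). Sptb, the gene of β-spectrin, had 1 of 24 peaks lower and 1 higher, both inside the gene. The lower one held 3.21, 3.70 and 4.44 normalized reads in KD1, KD2 and KD3, and 9.01, 32.4 and 17.4 in KI1, KI2 and KI3. That is 3 or 4 reads in each GFI1-KD library, and the peak passed the filter through GFI1-KI alone, so no fold is given. Its call was lost without KI3 (limma adjusted p = 0.0636), and without KI2 the peak fell under the filter. The higher one changed by 0.90 ± 0.24 and was not called without KD2, KI2 or KI3 (0.0803, 0.0792 and 0.0836). The Sptb sum, at 94.6% of the GFI1-KI level, did not pass the test (limma adjusted p = 0.371).

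The Rh genes lay close to the threshold. Rhag, which encodes the ammonia channel of the Rh complex, had 1 of 7 peaks lower, inside the gene, with 77.0, 76.5 and 95.4 normalized reads in KD1, KD2 and KD3, and 109, 127 and 116 in KI1, KI2 and KI3. The values did not overlap, but the call (-0.50 ± 0.15, limma adjusted p = 0.0379) was lost without KD1 (0.0857), KD2 (0.114), KI2 (0.188) or KI3 (0.118). The Rhag sum passed at an adjusted p of 0.0490, and not without KD2 (0.173), KD3 (0.0607), KI2 (0.214) or KI3 (0.170), with median-of-ratios scaling (0.0838), equal totals (0.0767), edgeR (0.111) or DESeq2 (0.198). Rhd, the gene of the Rh blood group antigen, had 0 of 7 peaks called, and its sum averaged 376.8 ± 29.9 in GFI1-KD and 439.0 ± 34.3 in GFI1-KI (limma adjusted p = 0.100), with 0.0484 without KD1. Ermap, which encodes an erythroid membrane protein, had 0 of 4 called and a sum at 101% of the GFI1-KI level.

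Car2, a carbonic anhydrase gene, was lower at 3 of 12 tested peaks and higher at 0. The strongest peak, over 1 end of the gene on chromosome 3 from 14886094 to 14887054, held 441, 357 and 458 normalized reads in KD1, KD2 and KD3, and 622, 618 and 623 in KI1, KI2 and KI3. The GFI1-KI libraries were nearly equal and all above GFI1-KD, at -0.58 ± 0.09 (limma adjusted p = 0.000464). A peak 44.0 kb away, counted among the 3, held 4, 2 and 2 reads in KD1, KD2 and KD3 and 9, 30 and 30 reads in KI1, KI2 and KI3. It passed the filter on low values through GFI1-KI alone and fell under it without KI2 or KI3, so no fold is given. The third, 11.3 kb away, held 6, 7 and 5 reads in KD1, KD2 and KD3 and 21, 19 and 21 reads in KI1, KI2 and KI3. It also passed the filter through GFI1-KI alone, so no fold is given. Its call was lost without KD3, KI1, KI2 or KI3, with adjusted p between 0.0621 and 0.0834. The Car2 sum held 880.6, 749.1 and 817.2 in KD1, KD2 and KD3 and 1158.6, 1135.9 and 1118.4 in KI1, KI2 and KI3, a log2 change of -0.48 ± 0.07 (limma adjusted p = 6.29e-05). Only 82 other peaks were tested within 2.5 Mb of Car2, of which 13.4% were lower.

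Of the nuclear proteins, Hemgn, which encodes hemogen, was lower at its start. That peak, on chromosome 4 from 46403991 to 46404766, held 213, 193 and 175 normalized reads in KD1, KD2 and KD3, and 257, 294 and 319 in KI1, KI2 and KI3. All GFI1-KD values were lower, at -0.58 ± 0.12 (SE, limma adjusted p = 0.00308). Further out, a peak at 10.4 kb was lower, at -0.75 ± 0.21, and was called in 1 of the 6 fits that left out a library, without KD1, with adjusted p between 0.0551 and 0.124 in the others. A peak at 18.5 kb was higher, at 1.08 ± 0.28, with 32.1, 38.3 and 25.5 normalized reads in KD1, KD2 and KD3 and 10.1, 16.7 and 17.4 in KI1, KI2 and KI3, and was not called without KD2 (0.0803). The Hemgn sum was 83.6% of the GFI1-KI level (limma adjusted p = 0.0123), and not called without KD3 (0.0556), KI2 (0.0606) or KI3 (0.0674).

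Bcl11a, which encodes the repressor of fetal globin genes and has further roles in stem and lymphoid cells, changed in both directions. Of its 51 tested peaks 4 were higher and 5 lower, and its sum did not pass the test, with 6094.1 ± 114.4 normalized reads in GFI1-KD and 6019.1 ± 292.1 in GFI1-KI (SD, n = 3 each). The widest called peak, 1146 bp inside the gene on chromosome 11 from 24141490 to 24142635, held 690.1, 594 and 695 in KD1, KD2 and KD3, and 538, 442 and 407 in KI1, KI2 and KI3. It was higher in GFI1-KD, with a log2 change of 0.52 ± 0.10 (limma adjusted p = 0.00178). Another peak inside the gene, starting at 24136170, held 47.1, 43.2 and 33.3 in KD1, KD2 and KD3, and 61.9, 109 and 83.8 in KI1, KI2 and KI3, a log2 change of -1.0 ± 0.21 (limma adjusted p = 0.00345). Sites within 1 gene thus changed in opposite directions. Further calls at Bcl11a were 0.85 ± 0.16 and 0.54 ± 0.12 (higher), which held without each library. Those at 0.40 (higher) and at -0.37, -0.40, -0.75 and -1.21 (lower) were each lost in at least 4 of the 6 fits that left out a library, with adjusted p between 0.0504 and 0.248. Of the peaks at -0.75 and -1.21, 1 passed the filter on low values through GFI1-KI alone. The peak at the Bcl11a start was not called (limma adjusted p = 0.193).

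In the megakaryocyte lineage, the von Willebrand factor receptor showed lower accessibility at each of its genes. The peak over the start of Gp1ba, which encodes the subunit that binds von Willebrand factor, lies on chromosome 11 from 70638429 to 70639258. It held 97.4, 28.4 and 52.1 normalized reads in KD1, KD2 and KD3, and 122, 209 and 179 in KI1, KI2 and KI3. The GFI1-KD libraries were widely spread, with KD2 lowest, and KI1 lay nearest to them, with a log2 difference of -1.64 ± 0.28 (SE, limma adjusted p = 0.000686). This call held without each library, and was not made by limma with robust variance estimation (0.143) or DESeq2 (0.0571). The Gp1ba sum held 272.8, 164.1 and 241.7 in KD1, KD2 and KD3 and 309.6, 371.6 and 324.0 in KI1, KI2 and KI3, and its call (limma adjusted p = 0.00483) was lost without KD2 (0.0507).

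At Gp1bb, which encodes the β chain linked to it, 2 of 4 peaks were lower. The peak beside the start, on chromosome 16 from 18622163 to 18622376, held 36.4, 38.3 and 42.1 normalized reads in KD1, KD2 and KD3, and 58.5, 78.9 and 77.0 in KI1, KI2 and KI3 (-0.85 ± 0.19, limma adjusted p = 0.00560). This peak also overlaps a second protein-coding gene, so its assignment is shared. The neighbouring peak overlapped between genotypes, with KI1 at 45.0 and KD3 at 47.7, and its call (-0.72 ± 0.22) was lost without KD1 (0.0752), KD2 (0.155), KI2 (0.271) or KI3 (0.145). The call of the Gp1bb sum (limma adjusted p = 0.0227) was lost without KD2 (0.142), KI2 (0.100) or KI3 (0.0540), with edgeR (0.0576) and with DESeq2 (0.0804).

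Gp9, which encodes the IX subunit, was lower at 2 of 8 peaks. The stronger, on chromosome 6 from 87775907 to 87776343, lies across the outer end of the gene at 87776131. That is 1.7 kb before the annotated start used here. It held 58.8, 37.0 and 39.9 normalized reads in KD1, KD2 and KD3, and 98, 157 and 119 in KI1, KI2 and KI3. No overlap was seen, and the change of -1.44 ± 0.20 (limma adjusted p = 0.000105) has the smallest p of the megakaryocyte peaks. By contrast the peak over the Gp9 start, with 102, 53.1 and 74.3 in KD1, KD2 and KD3 and 73.2, 135 and 108 in KI1, KI2 and KI3, overlapped between genotypes and was not called (0.179, with 0.0400 without KD1 and 0.0287 without KI1). The second lower peak, 5.2 kb outside, changed by -0.54 ± 0.16 and was not called without KD2, KD3, KI2 or KI3, with adjusted p between 0.0712 and 0.202. The Gp9 sum held 390.5, 292.5 and 324.9 in KD1, KD2 and KD3 and 460.5, 612.7 and 509.7 in KI1, KI2 and KI3 (-0.65 ± 0.11, limma adjusted p = 0.000280).

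The peak over the start of Gp5, which encodes the V subunit, lies on chromosome 16 from 30310723 to 30311027, and held 47.1, 18.5 and 31.0 normalized reads in KD1, KD2 and KD3, and 64.2, 111 and 68.0 in KI1, KI2 and KI3. KD2 was lowest and KI2 highest, and the change was -1.36 ± 0.26 (SE, limma adjusted p = 0.00223). Summed over 8 peaks, Gp5 averaged 371.4 ± 64.1 in GFI1-KD and 497.9 ± 23.4 in GFI1-KI (-0.44 ± 0.10, limma adjusted p = 0.00663). Vwf, the gene of the ligand itself, is also expressed in endothelial cells and had 31 tested peaks, 0 lower and 1 higher. That peak, inside the gene, held 44.9, 24.7 and 21.1 normalized reads in KD1, KD2 and KD3, and 15.8, 8.76 and 14.3 in KI1, KI2 and KI3 (1.12 ± 0.32, limma adjusted p = 0.0249). It was not called without KD1 (0.144), KI2 (0.133) or KI3 (0.0532). The Vwf sum was 101% of the GFI1-KI level.

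The fibrinogen receptor genes parted. The peak over the start of Itga2b, the αIIb subunit, on chromosome 11 from 102469778 to 102470420, held 488, 358 and 425 normalized reads in KD1, KD2 and KD3, and 535, 661 and 652 in KI1, KI2 and KI3. It was lower in GFI1-KD, at -0.54 ± 0.11 (limma adjusted p = 0.00219) and held without each library. The Itga2b sum averaged 1408.6 ± 134.7 in GFI1-KD and 1677.2 ± 42.1 in GFI1-KI (limma adjusted p = 0.0106, and 0.0537 without KD2). Itgb3, the β3 subunit, which also pairs with the αv chain outside platelets, had 30 tested peaks, 1 lower and 1 higher. The lower one, 8.0 kb outside the gene, held 24.6, 22.2 and 27.7 in KD1, KD2 and KD3, and 51.8, 59.6 and 66.5 in KI1, KI2 and KI3 (-1.22 ± 0.21, limma adjusted p = 0.000675). The higher one changed by 0.70 ± 0.23 (0.0488) and was called in 1 of the 6 fits that left out a library, without KI1, with adjusted p between 0.0713 and 0.172 in the others. The Itgb3 sum did not pass the test, at 102% of the GFI1-KI level. Gp6, the collagen receptor gene, had a single peak, 12.1 kb away, with 34.2, 34.6 and 45.5 in KD1, KD2 and KD3 and 34.9, 35.1 and 24.2 in KI1, KI2 and KI3, which was not called.

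Among the genes of granule proteins, Pf4, which encodes the chemokine platelet factor 4, was lower at 1 of 4 peaks. This peak, 2.3 kb beyond the gene on chromosome 5 from 90775668 to 90776025, held 41.7, 46.9 and 66.5 normalized reads in KD1, KD2 and KD3, and 92.3, 117 and 113 in KI1, KI2 and KI3. The genotypes stood apart (-1.06 ± 0.18, limma adjusted p = 0.000867), whereas the peak over the Pf4 start did not pass the test (0.239) and neither did the sum (0.101). Ppbp, the neighbouring gene of another platelet chemokine, had no assigned peak. Selp, which encodes P-selectin and is also expressed in endothelial cells, had 1 of 14 peaks lower (-0.90 ± 0.24) and 1 higher (1.01 ± 0.26), both before the gene at 5.0 and 4.0 kb. The lower was not called without KD3 (0.0753), KI2 (0.157) or KI3 (0.102), and the higher without KD2 (0.0785) or KI3 (0.115). The peak over the Selp start averaged 76.9 in GFI1-KD and 53.6 in GFI1-KI, and was not called (0.52 ± 0.21, limma adjusted p = 0.117). The called peak of Treml1, a receptor of platelet α-granules, lay 0.6 kb from its start. It held 22.5, 8.64 and 14.4 in KD1, KD2 and KD3, and 24.8, 53.5 and 34.7 in KI1, KI2 and KI3. KD1 and KI1 were close, and the call (-1.28 ± 0.32, limma adjusted p = 0.0125) was lost without KD2 (0.0711) or KI2 (0.124). By contrast the peak over the Treml1 start, low in both genotypes at means of 11.1 in GFI1-KD and 12.9 in GFI1-KI, was not called (-0.21 ± 0.36, limma adjusted p = 0.761). The Treml1 sum (limma adjusted p = 0.0252) was not called without KD2 (0.128), KD3 (0.0683), KI2 (0.143) or KI3 (0.0699).

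In the group of platelet formation and secretion, Rab27b, which encodes a small GTPase of granule release, was lower at 4 of 10 tested peaks, all inside the gene, and higher at 0. The peak with the smallest p, on chromosome 18 from 70062324 to 70062649, held 39.6, 28.4 and 27.7 normalized reads in KD1, KD2 and KD3, and 55.2, 88.5 and 93.6 in KI1, KI2 and KI3 (-1.27 ± 0.22, limma adjusted p = 0.000803). Of the other 3, 1 changed by -1.38, and 2 passed the filter through GFI1-KI alone, so no fold is given for those 2. In each of the 3, KI1 lay between 14.6 and 43.9 and below KI2 and KI3. The peak starting at 70101387, 1 of the 2 without a fold, was not called without KI2 (0.0689) or KI3 (0.0693). The peak over 1 end of Rab27b, the strongest there, was not called, with 186, 185 and 205 in KD1, KD2 and KD3 and 145, 199 and 162 in KI1, KI2 and KI3. The Rab27b sum was 75.8% of the GFI1-KI level (limma adjusted p = 0.0113), and was not called without KD2 (0.0983) or KI2 (0.0962). Tubb1, the β-tubulin of platelets, was lower at 1 of 2 peaks, inside the gene, with 49.2, 33.3 and 43.2 in KD1, KD2 and KD3 and 54.0, 82.4 and 68.7 in KI1, KI2 and KI3. The call (-0.69 ± 0.20, limma adjusted p = 0.0317) was lost without KD2 (0.136), KD3 (0.0696), KI2 (0.201) or KI3 (0.113), and that of the sum (0.0295) without KD2 (0.112), KI2 (0.181) or KI3 (0.0959).

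The libraries of a genotype did not behave alike at these genes. KI1 had the lowest GFI1-KI value in 16 of the 16 lower megakaryocyte peaks and in 13 of the 19 lower erythroid peaks, against 62.1% of the 9352 lower peaks of the whole table. KD2 had the lowest GFI1-KD sum at 8 of the 8 called megakaryocyte genes and 3 of the 6 called erythroid genes. How often KD2 was lowest over all genes is not given here, so these counts have no background. Summed over all 130 megakaryocyte peaks, the libraries held 12069, 10803 and 11669 normalized reads in KD1, KD2 and KD3, and 12475, 13023 and 12287 in KI1, KI2 and KI3. Over the 160 erythroid peaks they held 13558, 12921 and 13922 in KD1, KD2 and KD3, and 14692, 15121 and 14257 in KI1, KI2 and KI3. The genotypes did not overlap in either total. Normalized reads over all peaks were also lowest in KD2. Per 10000 of them, the megakaryocyte peaks held 5.68, 5.46 and 5.5 in KD1, KD2 and KD3, and 5.71, 6.1 and 5.86 in KI1, KI2 and KI3. The erythroid peaks held 6.38, 6.53 and 6.56 in KD1, KD2 and KD3, and 6.72, 7.08 and 6.81 in KI1, KI2 and KI3, so that KD2 was not the lowest there. KI1 and KD2 were also the shallowest libraries of their genotypes, and the part of depth in this pattern was not tested. Without KI1, 18 megakaryocyte and 21 erythroid peaks were lower and 6 and 9 higher, with 5.97% lower and 7.03% higher over all peaks.

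**Figure D4:**
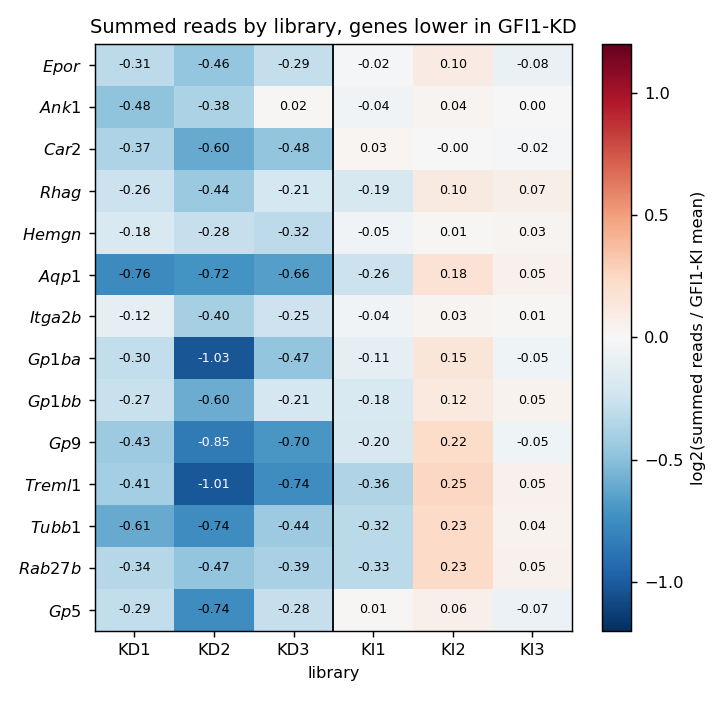
Log2 ratio of each library's summed reads to the GFI1-KI mean (colour and printed value) for the 14 genes lower in GFI1-KD, with GFI1-KD libraries left of the line and GFI1-KI libraries right of it. KD2 is darkest at all 8 megakaryocyte genes (Itga2b to Gp5), and KI1 is the lowest GFI1-KI library at 11 of the 14 genes.

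Other genes of the same lineages were counted from lists drawn from textbook knowledge. Of 164 tested peaks of the further erythroid genes (32 genes, 25 with a peak), 21 were lower and 3 higher (5.48% and 4.99% over all peaks), with a median log2 fold change of -0.18. These 24 calls numbered 8 without KI2 (4.23% over all peaks), 11 without KI3 (4.11%) and 14 without KD2 (7.3%). They numbered 14 without KD3, where 10749 of all 170364 tested peaks were called. On sums, 9 of 25 were lower and 1 higher, where 13.3% of all genes were lower and 3.82% higher. Trim58, an erythroid ubiquitin ligase gene, averaged 392.2 ± 16.8 in GFI1-KD and 554.7 ± 33.8 in GFI1-KI (SD, n = 3 each, limma adjusted p = 0.000376), and this call held without each library. The 1 higher gene was Cd36, a fatty acid receptor gene also used by monocytes, at 917.0 ± 85.4 in GFI1-KD and 762.6 ± 76.8 in GFI1-KI (0.0261), where the values overlapped. Of 464 tested peaks of 30 further megakaryocyte genes, 39 were lower and 16 higher, or 8.41% and 3.45%, with a median of -0.07. With median-of-ratios scaling 33 were lower and 26 higher (4.55% and 6.84% over all peaks), and with equal totals 36 and 27 (4.88% and 6.92%). The 55 calls numbered 24 without KI2, 23 without KI3 and 36 without KD3. On sums 7 of 30 genes were lower and 1, P2ry12, higher, against the same 13.3% and 3.82% of all genes. F2rl2, a thrombin receptor family gene, averaged 228.0 ± 32.8 in GFI1-KD and 472.5 ± 45.2 in GFI1-KI (limma adjusted p = 6.48e-07), and held without each library. The Cd36 and P2ry12 calls held in 3 and 2 of the 6 fits that left out a library.

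Markers of the sorted population were measured beside these genes. Peaks were present at 13 of 14 granulocyte-monocyte progenitor markers, among them Mpo, Elane, Prtn3, Ctsg and Cebpa but not Fcgr3, and their summed reads ranged from 27068 to 29025 in GFI1-KD and from 27567 to 29643 in GFI1-KI. Since 25 of the 28 erythroid and megakaryocyte genes had peaks too, the presence of peaks does not check the label. Of the 180 tested peaks of these markers 8 were lower and 9 higher, or 4.44% and 5.0%, near the 5.48% and 4.99% over all peaks. On sums 1 of 13 genes, Kit, was lower, where 13.3% of all genes were lower. Kit, the stem cell factor receptor gene, which erythroid and megakaryocyte progenitors also express, averaged 2562.4 ± 55.7 in GFI1-KD and 3017.8 ± 28.7 in GFI1-KI (limma adjusted p = 0.00512). Whether cells of the erythroid or megakaryocyte lineage were present in the sorted fraction, and in what share, was not tested.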

How the data were processed

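The members, the gene lists and the tests were chosen with earlier results of these data known. The deposited table gives a normalized signal for each consensus peak, which the authors obtained by scaling reads with a single factor per library. The values show this, since dividing by that factor gave whole reads at 100% of them (within 0.01 reads). The submitters' processing notes give the build mm10 and name HOMER, ChIPseeker, DiffBind, MACS2, Picard, SAMtools, BWA and Trim Galore. How peaks were merged, and any shift for the transposase, is not given in the sources used here. Columns named WT were taken as GFI1-KI, because the series title uses that word and the numbers match. Chromosome codes were read in alphabetical order, which put 16.0% of peaks of the 18 codes that differ within 1 kb of a gene end, against 2.6% in numeric order.

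Peaks were assigned to RefSeq protein-coding genes of the same build. After removing 11433 peaks that averaged under 10 normalized reads, the log2(value + 1) of the other 170733 was fitted with limma 3.58.1 in R 4.3.3, using a trended variance without a replicate block. Benjamini-Hochberg adjustment ran over all of them, and 0.05 was the threshold. Gene sums added all peaks of a gene and were tested likewise over 17728 genes. Fold changes are on that scale, which understates changes of low peaks. The limma fits were tested on simulated data with an assumed spread between libraries. Of 168506 simulated peaks, 100 were changed 2-fold and 99 were changed 4-fold. The fits recovered 36% of peaks changed 2-fold and 97% of those changed 4-fold, with 6 false calls. For gene sums they recovered 97% and 100%, with 13 false calls. Far fewer peaks were changed there than the 10.5% called in the real table, and the adjustment depends on that share. The recovered shares therefore do not carry over to these data. A peak that was not called can still have changed 2-fold. Alternatives were other pseudocounts, filters and scalings, a replicate block, robust variance, a chromosome Y term, edgeR 4.0.16 and DESeq2 1.42.0 on recovered reads, gene bodies alone, and leaving out each library. The text names, for each gene with a call, the called peak with the smallest p, and other called peaks mostly by fold. The peak nearest the start or strongest at a gene end, and the strongest peak of a gene without a call, are given for only some genes. Those left out were not called. Such a choice by smallest p favours large changes. Figures were drawn with matplotlib 3.10.9 in Python 3.11.15, from tables made with pandas 2.3.3 and numpy 2.4.6.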

Additional observations from a re-analysis of the deposited data

How the results depend on the processing

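Of 44 called member peaks, 44 were called at either other pseudocount (0.5 or 5) and by edgeR, 43 with the replicate block and with the chromosome Y term, 42 with robust variance, 40 with median-of-ratios scaling, 41 with equal totals, and 23 by DESeq2, which gave 5 others no adjusted p. No called peak or gene sum changed sign under any alternative. Called erythroid peaks, 25 as reported, numbered 16 with a mean of at least 50, 11 by DESeq2 and 16 in gene bodies alone, and 11 to 30 when 1 library was left out. Called megakaryocyte peaks, 19 as reported, numbered 10 with a mean of at least 50 and 11 to 24 when 1 library was left out. Over all peaks 17872 were called, 10819 by DESeq2 and 6996 to 22153 when 1 library was left out. Of the 14 genes called on sums, DESeq2 called 7, and 5 to 14 were called when 1 library was left out. A mean of at least 50 left 71 erythroid and 51 megakaryocyte peaks to test, and a fit without 1 library has fewer samples; the cause of the DESeq2 differences was not tested. Counting peaks that averaged at least 10 in each genotype, chosen after seeing the data, gave 21 and 17. The replicate block gave 29 erythroid and 20 megakaryocyte peaks, 15 genes and 18940 peaks in all. Same-numbered libraries correlated at -0.024, -0.038 and 0.056 in their deviations from the mean of their genotype. With 3 libraries per genotype these values cannot decide whether the libraries were paired by number. Changes of sign occurred in values not called: the Tfrc sum (-0.02) was 0.02 with median-of-ratios scaling and with equal totals, and 0.06 by edgeR and by DESeq2; the Selp sum (-0.07) was 0.01 by edgeR and by DESeq2. Leaving out 1 library gave ranges of -0.04 to 0.01 for the Tfrc sum, -0.09 to 0.11 for Ermap (-0.08 without KI3), -0.02 to 0.04 for Bcl11a, -0.02 to 0.08 for Itgb3 (-0.01 without KD1), -0.23 to 0.13 for the Vwf gene-end peak and -0.43 to 0.00 for the peak nearest the Rhag start. Depth limits low peaks: 3 reads are 3.21 to 3.70 normalized reads in GFI1-KD and 2.27 to 3.38 in GFI1-KI.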
